A study of Mus musculus with 8 samples.

Results

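The genes described here are those by which the dopamine and neuropeptide amacrine cells of the retina are usually recognised: Th and Slc18a2 for dopamine, and Vip, Penk, Tac1, Cck, Npy, Sst and Crh for peptides. They were chosen by name, as the rows of the expression table that carry one of these 9 gene names. A row was found for 8 of the 9, among 18058 genes in all, and there was none for Crh, which encodes corticotropin releasing hormone. All 8 averaged 10 normalized counts or more over the libraries and entered the test.

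Total RNA of whole retinae from adult mice was sequenced, with 4 libraries from wild-type (WT) mice and 4 from quadruple knockout (KO) mice, each set lettered A to D. The WT mice were of the inbred strain 129S2/SvPasCrl. The quadruple KO mice carry knockout alleles of the extracellular matrix genes Bcan, Ncan, Tnc and Tnr and were bred by crossing the single KO lines, so the 4 losses cannot be told apart. The age in weeks, which libraries came from females or males, how many of the pooled retinae went into a library and any batch of preparation are not given for the sequenced libraries, and p-values measure the spread between these 8 libraries.

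Amacrine cells are the inhibitory interneurons of the inner retina, and their many types release GABA or glycine, often together with a second transmitter. Dopamine is released by a sparse type that spreads its processes along the outer border of the inner plexiform layer, and it helps to switch retinal circuits between dim and bright light. Neuropeptides are made as long precursors, cut inside dense core vesicles by convertases, and act on receptors coupled to G proteins at some distance from the releasing cell. Several of these peptides are also made by some retinal ganglion cells, and in RNA from a whole retina fewer cells of a type and less RNA per cell cannot be told apart.

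None of the 8 genes passed an adjusted p of 0.05 in a limma test of quadruple KO against WT fitted to all 17636 genes tested, where 0.437% of the genes were called (0.261% higher and 0.176% lower in quadruple KO). At an unadjusted p under 0.05 stood 1 of the 8, against 16.6% of all genes tested, and the smallest of their two-sided exact permutation p-values was 0.0571. Sst was lowest relative to WT, at 56.7% of the WT mean, followed by Cck at 64.7% and Tac1 at 84.8%. Th, Slc18a2, Vip, Penk and Npy lay between 92.5% and 111% of the WT mean. The values of the 4 WT and the 4 quadruple KO libraries overlapped for all 8 genes, whereas they did not overlap for 9.74% of all genes tested, with quadruple KO above WT in 6.16% and below in 3.58%.

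Stretches of 4 promoters are shown because Th, Sst and Vip are known to be induced through cyclic AMP, by a short element near their starts. The cyclic AMP response element (CRE) TGACGTCA, which reads the same on both strands, was looked for in promoters of 300 bases, from 250 before to 50 after the annotated start. RefSeq promoters (GRCm38.p6, an earlier build than the GRCm39 of the reads) were matched by symbol for 7 of the 9 genes and not for Penk and Crh. The element was present in 3 of the 7, Th, Slc18a2 and Sst, and in 1.79% of the 32851 promoters of all genes. Its first 6 letters TGACGT, searched on both strands and contained in every full element, were present in 4 of the 7, with Vip added, and in 7.51% of all promoters. The element begins 45 bases before the start of Th (stretch shown chr7:142899996-142900080, minus strand), 48 before that of Sst (chr16:23890845-23890932, minus strand) and 4 before that of Slc18a2 (chr19:59260834-59260881, plus strand). The shorter form begins 79 bases before the start of Vip (chr10:5639099-5639184, plus strand). The stretches hold up to 40 bases on either side of the element, written 5′ to 3′ on the gene's strand with the element in capitals, and those of Th and Slc18a2 are cut at the start of the gene or the end of the element.
Th: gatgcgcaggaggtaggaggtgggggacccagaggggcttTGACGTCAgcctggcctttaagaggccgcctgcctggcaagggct
Sst: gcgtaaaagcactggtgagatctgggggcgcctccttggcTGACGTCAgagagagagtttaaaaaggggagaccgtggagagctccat
Slc18a2: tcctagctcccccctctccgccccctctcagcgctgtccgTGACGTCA
Vip: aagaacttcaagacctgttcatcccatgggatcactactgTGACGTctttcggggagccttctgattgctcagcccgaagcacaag
The TATA box letters TATAAA, searched on both strands, were found in 1 of the 7 promoters, that of Vip, and in 13.6% of all promoters. In Vip they stand 30, 147 and 157 bases before the start. These are matches of letters and not measured sites. The 3 genes with the full element had log2 fold changes between the genotypes of -0.09 (Th), 0.07 (Slc18a2) and -0.77 (Sst), none of which passed the test across all genes.

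**Figure D1:**
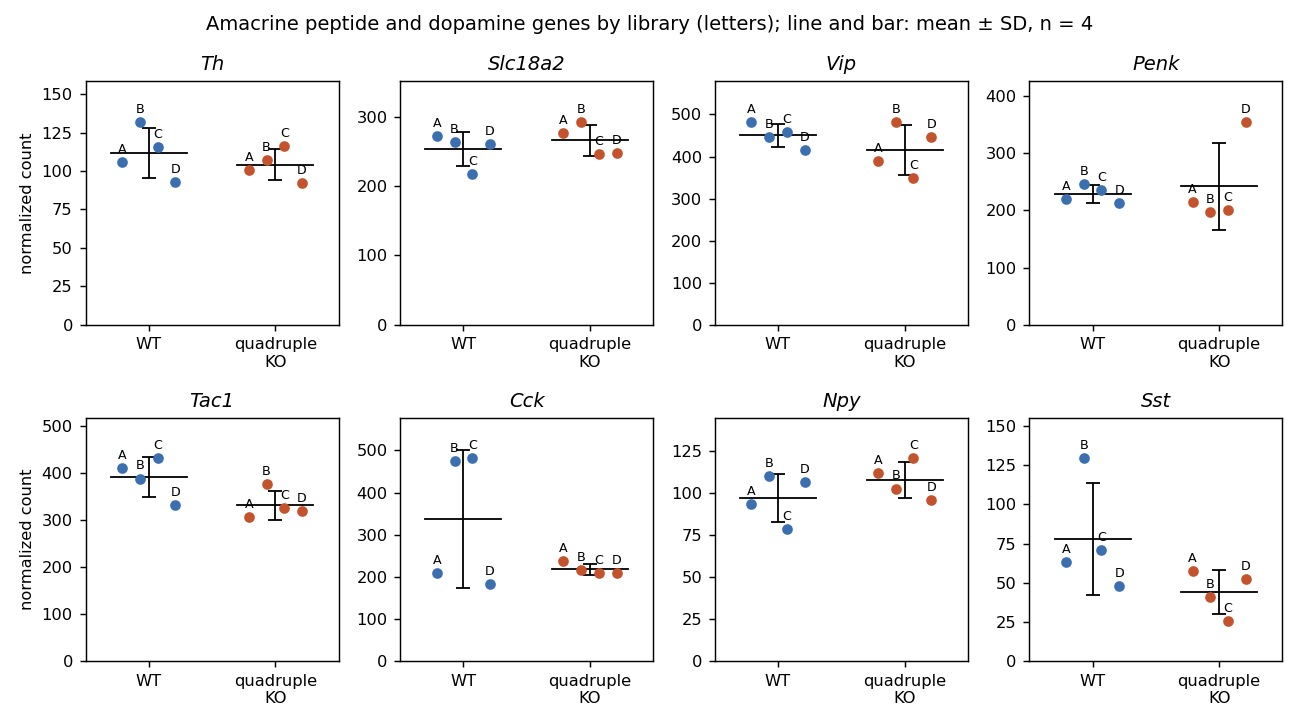
Normalized counts (linear axis from 0, a separate scale for each gene) of the 8 genes in the 4 WT and 4 quadruple KO libraries, with each library marked by its letter and the mean ± SD (n = 4) by a line and bar. The genotypes overlap for every gene, and Cck and Sst in WT and Penk in quadruple KO show libraries that stand apart.

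Before the single genes, the libraries themselves were examined. The targeted genes Ncan and Bcan were nearly absent from the quadruple KO libraries (Ncan 569 to 789 normalized counts in WT and 0 to 0.853 in KO; Bcan 197 to 327 and 11.5 to 22.1), Tnr was at 2374 to 2580 against 5578 to 6317 in WT, and Tnc transcripts did not pass the test (log2 fold change -0.07, limma adjusted p = 0.826). Counts cover the whole gene and would include any transcripts of a disrupted allele, whose part in these levels was not tested. The estimated depth ran from 23.8 M reads in WT B to 52.2 M in KO C. WT B and WT C stood apart from the other 6 libraries: the RNAs of the signal recognition particle made up 19.3% and 14.8% of their normalized counts against 6.82% to 8.69%, and the 13 mitochondrial mRNAs 0.402% and 0.341% against 1.28% to 1.64%. In 4 of the 8 genes described here (Th, Penk, Cck and Sst) both exceeded WT A as well as WT D, and in 0 both were below them, while of all genes tested both lay above in 35.1% and below in 35.8%. For that reason the differences of the 8 genes, and those of several other genes that move with these 2 libraries, are also given without them, a choice made with their values known.

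The samples contained the amacrine population to which the genes belong. The 13 amacrine genes on the list for the class were all tested, among them Tfap2b, a transcription factor of amacrine and horizontal cells, at 3906 to 5461 normalized counts in WT and 5461 to 5694 in quadruple KO. The summed level of the list was 94096 to 110785 in WT and 91398 to 95676 in quadruple KO, so that the genotypes overlapped. The most abundant gene on it was Snap25, a protein of synaptic vesicle fusion that other retinal neurons also make.

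Th (ENSMUSG00000000214.12, GRCm39 chr7:142443466-142484865, minus strand) encodes tyrosine hydroxylase, the rate-limiting enzyme of dopamine synthesis. It was measured at 106.1, 132, 115 and 93.1 normalized counts in WT A to D and at 101, 107, 116 and 92.4 in KO A to D. The highest value was that of WT B and the lowest that of KO D, and the quadruple KO values all lay inside the WT range except KO D, just under it. The means were 112 ± 16.4 and 104 ± 10.1 (SD, n = 4), a log2 fold change of -0.09 with a standard error of 0.14 (limma adjusted p = 0.706, two-sided exact permutation p = 0.514). The 95% interval ran from 74.8% to 117% of WT and included no difference. Without WT B and WT C the log2 fold change was 0.06.

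Slc18a2 (ENSMUSG00000025094.9, GRCm39 chr19:59249238-59284695, plus strand) encodes the vesicular monoamine transporter VMAT2, which loads dopamine into vesicles. It was at 273, 264, 217 and 260 normalized counts in WT A to D and at 277, 293, 246 and 248 in KO A to D. WT C was the lowest library and KO B the highest, with the other 6 between them in both genotypes. The means of 253 ± 24.9 and 266 ± 22.9 (SD, n = 4) gave a log2 fold change of 0.07 with a standard error of 0.11 (limma adjusted p = 0.712, two-sided exact permutation p = 0.486). The 95% interval covered 88.2% to 125% of WT, and without WT B and WT C the log2 fold change was -0.0066. On the opposite strand the gene overlaps Pdzd8, but the canonical transcripts share 0 bases of exon.

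The other genes of the dopamine pathway were examined as a list of 14, of which 9 could be tested, Pnmt had too low a level, and Slc6a3, Slc18a1, Dbh and Lmx1b had no row. None of the 9 was called by limma, and 2 had an unadjusted p under 0.05, against 16.6% of all genes tested. Ddc, the decarboxylase that completes dopamine synthesis, had a log2 fold change of 0.04 at a low level (limma adjusted p = 0.950). Pts, an enzyme of the synthesis of the cofactor tetrahydrobiopterin, was at 359 to 461 normalized counts in WT and 497 to 553 in quadruple KO, without overlap (log2 fold change 0.32, limma p = 0.0112, adjusted p = 0.301, two-sided exact permutation p = 0.0286), and its lowest values were those of WT B and WT C, without which the log2 fold change was 0.18. Spr and Qdpr, of the same cofactor's synthesis and recycling, had log2 fold changes of -0.51 and -0.34 that rested on WT B and WT C, with values of 0.0038 and 0.03 when these were left out. The median log2 fold change of the 9 was 0.07, against -0.00018 over all genes tested.

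Among the dopamine receptors, 4 of 5 had a row and none was called by limma. An unadjusted p under 0.05 was found for 1, against 16.6% of all genes tested. Drd1, a receptor that raises cyclic AMP, was at 1637, 4608, 3901 and 1438 normalized counts in WT A to D and at 1362 to 1462 in quadruple KO. The high WT mean came from WT B and WT C, and the log2 fold change of -0.87 had a limma p of 0.0330 and an adjusted p of 0.301. Drd4, the most abundant and a receptor of photoreceptors, had a log2 fold change of 0.08, Drd2, the autoreceptor of dopamine cells, -0.16, and Drd5 0.29. Without WT B and WT C the log2 fold changes were -0.14 for Drd1, 0.27 for Drd4, 0.10 for Drd2 and 0.04 for Drd5, and none was called by limma (adjusted p 0.102 for Drd4).

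Of the peptides, Vip (ENSMUSG00000019772.6, GRCm39 chr10:5589186-5599956, plus strand) encodes vasoactive intestinal peptide, which marks several GABA amacrine types. Its values were 481, 446, 458 and 416 normalized counts in WT A to D and 388, 483, 349 and 446 in KO A to D. KO A and KO C were the lowest libraries and KO B the highest of all 8. The means were 451 ± 27.0 and 417 ± 59.5 (SD, n = 4), with a log2 fold change of -0.12 and a standard error of 0.12 (limma adjusted p = 0.530, two-sided exact permutation p = 0.343). The 95% interval was 76.7% to 110% of WT, and without WT B and WT C the log2 fold change was again -0.12.

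Penk (ENSMUSG00000045573.10, GRCm39 chr4:4132722-4141856, minus strand) encodes proenkephalin, the precursor of the enkephalins. It was at 220.3, 246, 236 and 212 normalized counts in WT A to D and at 215, 197, 199.8 and 355 in KO A to D. KO B and KO C lay below all WT libraries, KO A lay between WT A and WT D, and KO D lay above all 7 others. The means of 229 ± 15.1 and 242 ± 76.0 (SD, n = 4) gave a log2 fold change of 0.04 with a 95% interval of 76.8% to 137% of WT (limma adjusted p = 0.913, two-sided exact permutation p = 0.971). Without KO D the log2 fold change was -0.16, and without WT B and WT C it was 0.12. Of the 8 genes Penk alone lies on the chromosome of a targeted gene, 59.74 Mb from Tnc.

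Tac1 (ENSMUSG00000061762.13, GRCm39 chr6:7554120-7565834, plus strand) encodes the precursor of substance P and neurokinin A. It was at 411, 389, 432 and 333 normalized counts in WT A to D and at 307, 376, 325 and 319 in KO A to D. All WT libraries but D lay above all KO libraries, and only KO B reached past WT D. The means were 391 ± 42.4 and 332 ± 30.8 (SD, n = 4), a log2 fold change of -0.23 with a standard error of 0.11 (limma p = 0.0645, adjusted p = 0.306, two-sided exact permutation p = 0.0571). The 95% interval, 71.4% to 101% of WT, just included no difference, and the log2 fold change was -0.16 without WT B and WT C.

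Cck (ENSMUSG00000032532.8, GRCm39 chr9:121315695-121324863, minus strand) encodes cholecystokinin. It was at 210.3, 476, 481 and 183 normalized counts in WT A to D and at 238, 216, 209 and 210.0 in KO A to D. WT B and WT C formed a pair 2.43 times as high as WT A and WT D, whereas the 4 KO libraries lay close together and close to the lower pair. The means of 338 ± 163 and 218 ± 13.3 (SD, n = 4) gave a log2 fold change of -0.49 with a 95% interval of 43.8% to 116% of WT (limma p = 0.150, adjusted p = 0.372, two-sided exact permutation p = 0.371). It was -0.28 without WT B alone, -0.27 without WT C alone and 0.15, the opposite direction, without both. The spread of Cck among the WT libraries, on the log2 scale, was larger than that of 91.7% of the genes tested, and it moved with the signal recognition particle RNA and mitochondrial mRNA shares of the same 2 libraries, whose part in the result was not tested.

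Npy (ENSMUSG00000029819.7, GRCm39 chr6:49799026-49806489, plus strand) encodes neuropeptide Y. It was at 93.8, 110.1, 78.6 and 107 normalized counts in WT A to D and at 112, 103, 121 and 95.8 in KO A to D. WT C was the lowest library and KO C the highest. The means were 97.3 ± 14.3 and 108 ± 10.9 (SD, n = 4), with a log2 fold change of 0.15 and a 95% interval of 88.2% to 140% of WT (limma adjusted p = 0.538, two-sided exact permutation p = 0.314). The lower end of this interval and that of Slc18a2 were the highest of the 8 genes. Without WT B and WT C the log2 fold change was 0.10.

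Sst (ENSMUSG00000004366.5, GRCm39 chr16:23707321-23711733, minus strand) encodes somatostatin, which in the mouse retina is made by sparse, widely branching amacrine cells. It was at 63.2, 129, 71.1 and 47.8 normalized counts in WT A to D and at 57.6, 40.7, 25.8 and 52.4 in KO A to D. WT B was far above the rest and KO C the lowest, while WT D lay below KO A and KO D. The means of 77.8 ± 35.6 and 44.1 ± 14.1 (SD, n = 4) gave a log2 fold change of -0.77 with a standard error of 0.34, and a 95% interval of 34.6% to 99.8% of WT. The limma p was 0.0491, which became 0.301 after adjustment, and the two-sided exact permutation p was 0.0857, where 0.0286 is the smallest that 4 against 4 libraries allow. Sst was thus the 1 gene of the 8 with an unadjusted p under 0.05, a level that 16.6% of all genes tested passed. The log2 fold change was -0.49 without WT B alone, -0.54 without KO C alone and -0.37 without WT B and WT C, in the same direction as with all 8 libraries.

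Depth bore most on Sst. It rested on an estimated 36.2 to 72.8 reads a library, for which counting alone gives an error of 11.7% to 16.6% of the value. Npy rested on 52.8 to 169 reads and Th on 74.5 to 163, and the other genes on up to 654. The range of Sst among the KO libraries, from 25.8 to 57.6, was wide beside that counting error, and its KO spread on the log2 scale was larger than in 95.3% of the genes tested.

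**Figure D2:**
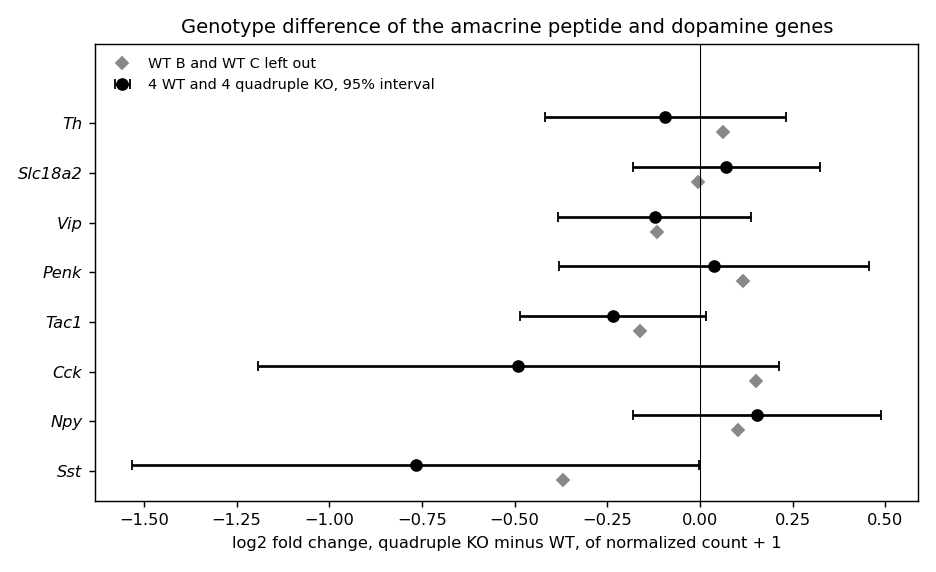
Log2 fold change of quadruple KO against WT for the 8 genes, on the scale of normalized count plus 1, from all 8 libraries (black, with 95% interval) and with WT B and WT C left out (grey diamond, no interval drawn). The intervals of 7 genes include 0, that of Sst ends just below it, and the estimates of Th, Slc18a2 and Cck lie on the other side of 0 when the 2 libraries are left out.

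Set against each other per kilobase of the canonical transcript, the WT levels spanned from Vip at 287 ± 17.3 normalized counts per kb (SD, n = 4) to Th at 23.1 ± 3.39. Npy followed Vip at 172 ± 25.3, then Tac1 at 164 ± 17.8, Cck at 84.7 ± 40.9, Penk at 83.2 ± 5.49, Slc18a2 at 61.4 ± 6.04 and Sst at 45.2 ± 20.7. The WT ranges of Npy and Tac1, of Cck and Penk, and of Slc18a2 and Sst overlapped, so that these neighbours are not ordered beyond their spread. In quadruple KO the order was the same except that Cck, at 54.7 ± 3.34, stood below Penk and Slc18a2, and there only the neighbours Tac1 and Penk, and Sst and Th, overlapped. By the mean per kb over all 8 libraries, Th was above 19.9% of the genes tested that have a canonical transcript length, and Vip above 62.2%. The order depends on the length used: with all annotated exons in place of the canonical transcript, Tac1 was the highest and Vip the fifth, while Slc18a2, Sst and Th kept the last 3 places.

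**Figure D3:**
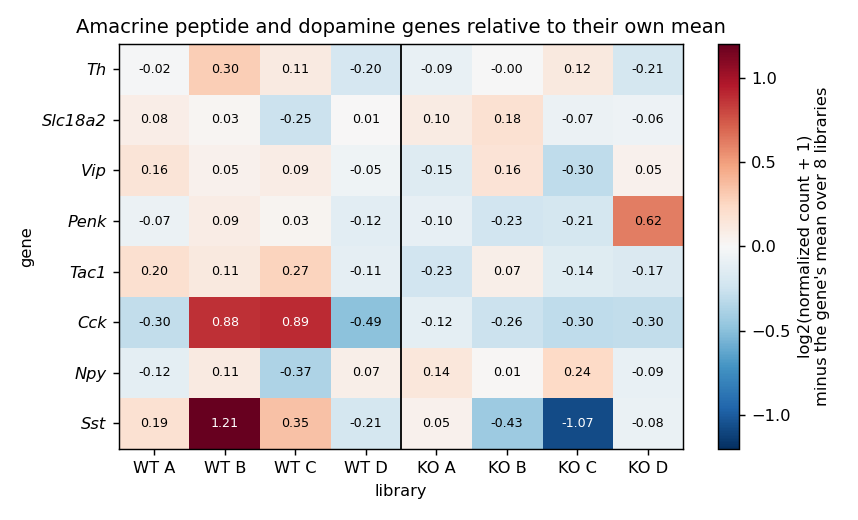
Each gene's log2 normalized count (plus 1) in every library minus its own mean over the 8 libraries, with red above and blue below that mean and the value printed in each cell. The 3 strongest reds are Sst in WT B and Cck in WT B and WT C, Penk stands above its mean in KO D, and the strongest blue is Sst in KO C.

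The genes did not share one pattern over the libraries. KO D was highest for Penk and lowest for Th, and KO C was lowest for Vip and Sst but highest for Npy. The gene most like each over the 8 libraries, by the root mean square difference of centred log2 values was taken from 12623 other genes with a mean of at least 100. It was Slit2 for Slc18a2 (0.04), Lingo1 for Th (0.05), Tatdn3 for Tac1 (0.05), Ccdc167 for Npy (0.07), Chmp2a for Cck (0.07), Gpr61 for Vip (0.08), Itga9 for Penk (0.11) and C2cd2 for Sst (0.21). Itga9 shared with Penk its highest value in KO D (545 normalized counts), and Chmp2a shared with Cck the high pair WT B and WT C.

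The receptors of these peptides were counted next. Of 22 listed receptor genes 16 could be tested and none was called by limma, with a median log2 fold change of 0.04. An unadjusted p under 0.05 was found for 3, against 16.6% of all genes tested. Tacr3, the neurokinin B receptor, which also binds other tachykinins, was at 849 to 1146 normalized counts in WT and 1172 to 1267 in quadruple KO, without overlap (log2 fold change 0.33, limma p = 0.0115, adjusted p = 0.301, two-sided exact permutation p = 0.0286). Cckbr, the receptor for cholecystokinin that prevails in neural tissue, was at 119.5 to 182 in WT and 174 to 214 in KO, and had a log2 fold change of 0.36 (limma p = 0.0387, adjusted p = 0.301, two-sided exact permutation p = 0.0571). Crhr2, a receptor of the corticotropin releasing hormone family, had one of -0.40 with an adjusted p of 0.301 (limma). Tacr3 and Cckbr were lowest in WT B and WT C, and without these 2 libraries the log2 fold changes were 0.16 for Tacr3, 0.16 for Cckbr and -0.30 for Crhr2. The 4 tested somatostatin receptors were between -0.02 and 0.17.

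Peptide processing was examined with 19 genes of convertases, modifying enzymes and dense core vesicles, and all 19 could be tested. None was called by limma and 1 had an unadjusted p under 0.05, against 16.6% of all genes tested. The median log2 fold change was -0.02, and the genotypes overlapped for every gene. Cpe, the carboxypeptidase that trims the peptides and the most abundant of the list, was at 41431 ± 2328 normalized counts in WT and 41593 ± 1328 in quadruple KO (SD, n = 4), a log2 fold change of 0.01 with a 95% interval of -0.15 to 0.16. The convertase Pcsk2 had a log2 fold change of -0.02 and Pcsk1 one of -0.11. Pcsk1n, the precursor of a convertase inhibitor, had -0.75 (limma p = 0.0315, adjusted p = 0.301, two-sided exact permutation p = 0.0857), and its WT values of 5252, 10727, 11997 and 4412 in A to D again put WT B and WT C above the rest. Without these 2 libraries its log2 fold change was -0.13.

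Other neuropeptide precursors were examined as a list of 37, of which 12 had a row and could be tested. The 12 include Crhbp, which encodes a protein that binds corticotropin releasing hormone and is not a precursor (log2 fold change -0.31). None of the 12 was called by limma. An unadjusted p under 0.05 was found for 4, of which 3 were lower in quadruple KO, against 16.6% of all genes tested in either direction. The median log2 fold change was -0.33, and 9 of the 12 had a lower mean in quadruple KO, as had 8822 of the 17636 genes tested. The summed level of the list was 5061, 8206, 8701 and 4467 normalized counts in WT A to D and 4785 to 5182 in quadruple KO, so that WT B and WT C lay above all other libraries, WT A inside the KO range and WT D below it. Apln, the precursor of apelin, was at 99.7, 87.6, 137 and 104 normalized counts in WT A to D and at 64.9, 65.9, 57.2 and 63.8 in KO A to D. All KO libraries lay below all WT libraries, with a log2 fold change of -0.74 (limma p = 0.00115, adjusted p = 0.184, two-sided exact permutation p = 0.0286). Tac2, the neurokinin B precursor, and Pomc, the proopiomelanocortin gene, also lay lower in every KO library (log2 fold changes -0.45 and -0.38, limma adjusted p = 0.301 for each). Pomc was at 128, 168, 166 and 120 normalized counts in WT A to D and at 102 to 117 in KO. Its WT mean was thus raised by WT B and WT C, and its fold change without them is not given here. Adcyap1, the precursor of PACAP, lay higher in every KO library, at 87.1 to 177 against 48.9 to 82.0 in WT (log2 fold change 0.70, limma adjusted p = 0.301). Without overlap, 3 of the 12 genes thus lay below WT and 1 above, against 3.58% and 6.16% of all genes tested. Cartpt, the most abundant precursor of the list, had a log2 fold change of -0.35 and overlapped between the genotypes. Without WT B and WT C the log2 fold changes were -0.69 for Apln, -0.20 for Tac2, 0.46 for Adcyap1 and 0.15 for Cartpt.

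**Figure D4:**
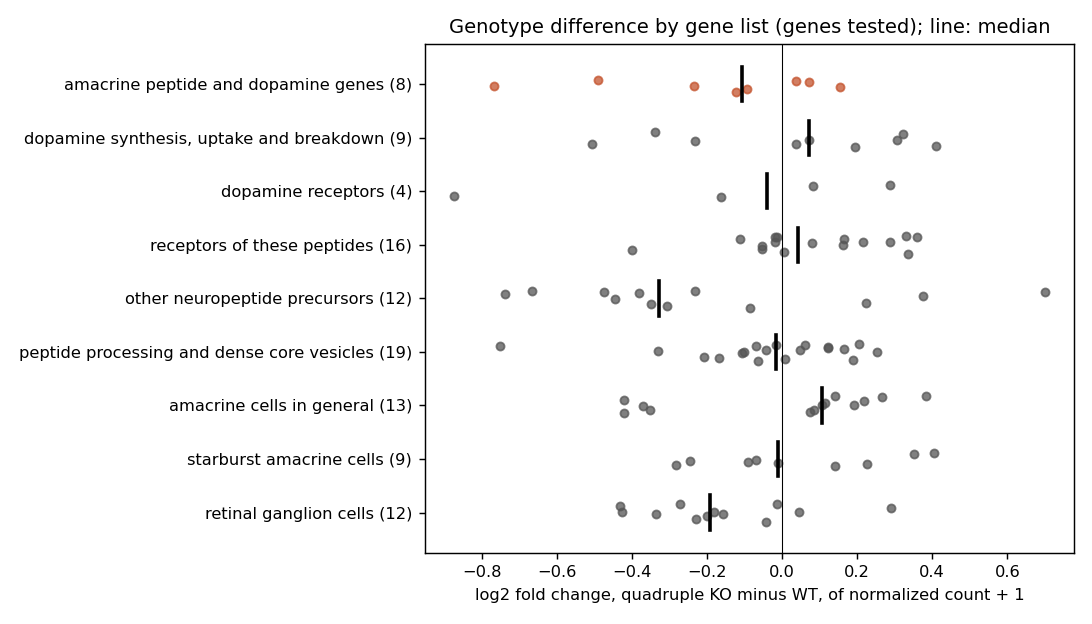
Log2 fold change of quadruple KO against WT of each tested gene (points; vertical position within a row is only for legibility), for the 8 genes and 8 other lists (dopamine, peptide, amacrine, starburst and ganglion cell genes), with each list's median as a black bar and the number of genes in brackets. None of the genes drawn was called, and the medians of these lists run from -0.33 for the other neuropeptide precursors to 0.11 for the amacrine genes.

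Markers of the cells around and beside these amacrine types were set next to the results. Of all 17636 genes tested, 0.437% were called by limma and 16.6% had an unadjusted p under 0.05 (1638 higher and 1284 lower in quadruple KO). Of the 13 amacrine genes none was called by limma. An unadjusted p under 0.05 was found for 4, of which 2 were higher and 2 lower in quadruple KO. The 2 lower were Stx1a, a syntaxin of amacrine and other neurons, and Calb2, the calretinin of amacrine and ganglion cells. Both lay below WT in every KO library, as did 3.58% of all genes tested (log2 fold changes -0.37 and -0.35, limma adjusted p = 0.301 for each). Tfap2b, 1 of the 2 higher, had a log2 fold change of 0.27 (two-sided exact permutation p = 0.0571). Its values overlapped between the genotypes and were lowest in WT B and WT C. The mean was higher in quadruple KO for 9 of the 13 genes, with a median log2 fold change of 0.11. None of the 9 starburst genes was called by limma (1 at an unadjusted p under 0.05), with a median log2 fold change of -0.01. Of the 12 ganglion cell genes none was called by limma and 5 had an unadjusted p under 0.05, all lower in quadruple KO, and their summed level was 34952 to 39495 in WT and 28914 to 34107 in quadruple KO, without overlap. The 9 rod genes summed to 1681460, 1347090, 1563570 and 1784690 in WT A to D and to 1798070 to 1949370 in KO, again without overlap and with WT B and WT C lowest, and none was called by limma (4 at an unadjusted p under 0.05, all higher). Summed levels of the lens genes were 83.0 to 2828 in WT and 34.9 to 1890 in KO. They were highest in WT B, where Sst was also highest, and next highest in KO C, where Sst was lowest. Sums of the pigment epithelium and choroid genes ran from 2671 to 7448 and from 2810 to 4363, those of fibroblasts and sclera from 708 to 976 and from 567 to 745, and those of the ciliary body and iris from 5052 to 5642 and from 6265 to 6925. The ciliary sum, with a mean of 5254 in WT and 6534 in KO, was largely Aqp1, at 3382 and 4371. The paper describes Aqp1 as expressed by amacrine cells and Mueller glia. It also reports Aqp1 as upregulated in quadruple KO, among the genes at an adjusted p under 0.05 in its DESeq2 test. Here limma gave Aqp1 a log2 fold change of 0.37 and an adjusted p of 0.185. Horizontal cell genes summed to 5824 to 7119 in WT and 6185 to 6446 in KO, and Mueller glia genes to 152133 to 212033 and 152724 to 168620. None of the genes on these 6 lists was called by limma, and an unadjusted p under 0.05 was found for 0 of 5 lens, 1 of 8 pigment epithelium and choroid, 3 of 6 fibroblast, 3 of 6 ciliary, 0 of 5 horizontal cell and 1 of 8 Mueller glia genes. Rpe65 and Mlana, defining genes of pigment cells, had no row. The part of these cell types in the levels of the peptide and dopamine genes was not tested.

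No called gene lay near any of the 8. The nearest was Bnip3, 3.932 Mb from Th, followed by Vmn1r14 at 7.402 Mb from Npy and Pkp2 at 7.617 Mb from Sst. The other distances ran up to 103.1 Mb, from Penk to Glis1.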

How the data were processed

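The 4 WT and 4 quadruple KO libraries, made from pooled retinae, were grouped by the titles and the genotype labels. The authors trimmed reads with Trim Galore 0.6.7, aligned them with STAR 2.7.9a to GRCm39, estimated gene counts with Salmon 1.5.2 and scaled them with DESeq2 1.32.0 in R 4.1.1. Whether counting used strand is not given in the sources used here. The deposited table holds normalized counts per library, the authors' estimated counts divided by their scaling factors, beside the authors' mean, fold changes and p-values, which were not used. The value of 1 read, from the spacing of low values, gave an estimated depth of 23.8 M to 52.2 M reads. Because 49.0% to 70.8% of low values lay on whole steps, reads were not recovered, and a count model, named first in the design, was replaced by the test it named for normalized counts.

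This was limma 3.58.1 in R 4.3.3 (lmFit, eBayes with trend) on log2(normalized count + 1), for 17636 genes that averaged 10 or more, adjusted by the Benjamini-Hochberg method over all of them, without covariates. Fold changes are on that scale and understate changes of low genes. Two-sided exact permutation tests on normalized counts were added for the single genes. The test was checked on simulated data with known changes. It recovered 152 of 197 changed genes, and 58 of the 97 changed 2-fold, with 9 false calls, so changes of that size can be missed. The simulated libraries varied independently for each gene, without the shared shift of WT B and WT C. False calls and recovery under such a shift were not checked. Positions and lengths came from GENCODE vM39 and promoters from RefSeq. Python 3.11.15, numpy 2.4.6, pandas 2.3.3, scipy 1.17.1 and matplotlib 3.10.9 were used.

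The genes, the lists and the alternatives were chosen with earlier results of these data known. The rule for genes that may be named took all 8 genes, of each list the called genes, up to 3 with the smallest p and the most abundant, the gene most like each of the 8, and the 4 targeted genes. Beyond this rule, Ddc, Drd2, Drd4, Drd5, Pomc, Crhbp, Pcsk1, Pcsk2 and the somatostatin receptors were named after their values were seen. Some genes taken by this rule are not reported here.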

Additional observations from a re-analysis of the deposited data

Results flagged for a closer look

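In groups of 4 libraries, a library was singled out where its gap to the nearest other, as a share of the group's range, passed the 95% critical value of Dixon's test. This happened in 5 of 126 groups examined. For independent groups of normally distributed values chance gives about 1 in 20. The groups examined share the same 8 libraries and are not independent, so that rate is only a rough guide. Penk in KO D, at 355 normalized counts against 197 to 215 in the other 3 quadruple KO libraries, was the only case among the 8 amacrine peptide and dopamine genes. The other 4 cases were Crhr2 in WT B at 108 (others 80.3 to 83.4), Best1 of the pigment epithelium in KO B at 33.5 (others 13.5 to 16.0), and the lens genes Bfsp1 and Crybb2 in KO C at 73.0 (others 14.9 to 23.7) and 546 (others 3.16 to 79.9). Crybb2 was higher still in WT B, at 1169.6 normalized counts.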

How the results depend on the processing

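None of the 8 genes was called by limma under any of 19 alternatives (quantile or median-ratio scaling, other pseudocounts and filters, other variance priors, array weights, the letter as a block, each library left out, and WT B and WT C left out), and the smallest adjusted p was 0.0921, for Tac1 without WT D. In that setting 3 of the 8 had an unadjusted p under 0.05, as had 34.3% of all genes tested. Vip, Tac1, Npy and Sst kept their direction in every alternative run for them. Sst ran from -0.97 to -0.37 over its 18 alternatives (adjusted p 0.0944 to 0.667) and was not tested with a minimum mean of 100. Without WT B and WT C the sign turned for Th (0.0612), Slc18a2 (-0.0066), Cck (0.15), Spr (0.0038), Qdpr (0.0270), Drd2 (0.10), Cartpt (0.15) and Tnc (0.25). With array weights it turned for Slc18a2 (-0.0040), Cck (0.0072), Drd2 (0.0918), Cartpt (0.0128) and Tnc (0.13), and Apln was called (adjusted p 0.0198). With 1 library left out it turned for Slc18a2 (range -0.0013 to 0.109, below 0 without WT C), Penk (-0.16 to 0.121, below 0 without KO D), Ddc (-0.0884 to 0.318, below 0 without WT C, KO A, KO B or KO D), Cpe (-0.0137 to 0.0450, below 0 without WT B, WT D or KO C) and Tnc (-0.23 to 0.0522, above 0 without WT B or WT C). Genes called numbered 77, 143 with array weights, 51 with the letter as a replicate block, 99 without WT B and WT C, and 54 to 89 with 1 library left out. Under the replicate block the adjusted p of the 8 ran from 0.341 (Sst) to 0.922 (Penk). Same-letter residuals correlated at -0.0097 (A), -0.11 (B), 0.098 (C) and 0.050 (D), and those of different letters at -0.132 to 0.115. These few correlations cannot decide whether the letters pair the libraries. DESeq2 was not run, since whole counts were not recovered. The causes of these shifts were not tested. Depth limits Sst, Npy and Th most, and the 95% intervals of the 8 genes reach from 34.6% to 140% of WT.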
